A study of Saccharomyces cerevisiae with 18 samples.

Results

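The control cultures were 4 log-phase cultures of the budding yeast strain BY4743, and their 4 arrays were taken, by the control label of each sample, out of 18 arrays in the series. BY4743 is a diploid laboratory strain whose genotype in the methods is homozygous for deletions in HIS3, LEU2 and URA3 and heterozygous for deletions in MET17 (named MET15 there) and LYS2. It was grown at 30°C in minimal medium with uracil, whose carbon source the methods do not name. The labels and the methods call the control cultures untreated, while another passage of the study has them receive the vehicle. They were harvested like the rest after 20 min, and the other arrays held cultures that had received 1 of 6 extracts of the herb Equisetum arvense at 2.5 mg/mL for the same time. The sample titles carry 2 dates, whose meaning is not given in the sources used here. There were 2 control cultures at the later date, called the later cultures here, and 2 at the earlier date, called the earlier cultures, each numbered 1 and 2 in the titles. The only other group with both dates was that of the CHINA8 extract, with 2 later and 2 earlier cultures, and it served for comparison. The cultures are described as biological duplicates. The p-values below set a difference against the spread between cultures of the same treatment and date, pooled over all 18 arrays. They are not based on the control cultures alone and hold no estimate of the spread between repeated dates.

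A log-phase yeast culture on glucose ferments most of the sugar to ethanol and spends a large part of its transcription on the translation machinery. Glucose represses the genes for other sugars, for making glucose and for respiration. A cell that carries both mating types turns off the genes that haploids use for mating, and starvation is needed before it enters meiosis. The levels below show where each of these gene groups stood in the control cultures.

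The deposited values covered 5900 probe sets of each array, short groups of probes near the 3′ end of a transcript, as log2 signals. Without the 137 Affymetrix control probe sets, 5763 remained, and 5498 of them named 1 gene each (5449 genes in all). On the control arrays the lowest value was 2.73 and the highest 14.49, and the medians of the arrays ran from 9.56 to 9.62. The level of a probe set is given as its mean log2 value over the 4 cultures and as a percentile, the percent of the 5763 probe sets whose mean was lower. A percentile ranks signals and not mRNA copies, since probe sets differ in how well they hybridize. In RNA from a whole culture, fewer cells that express a gene and less RNA per cell cannot be told apart.

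The lower end of the scale could be read from the design of the array and of the strain. Of 47 probe sets that the array names as reporter sequences, 41 lay in the lowest 10%, with means between 2.82 and 5.14. The other 6 lay above the lowest 10% and are not part of this range. URA3, which encodes the last enzyme of UMP synthesis and is deleted on both chromosomes, had values of 3.26 and 3.28 in the later cultures and 3.18 and 3.23 in the earlier cultures, at percentile 1.2. LEU2, an enzyme of leucine synthesis that is also deleted on both chromosomes, had 3.55 and 3.41 in the later cultures and 3.38 and 3.73 in the earlier cultures. Both deleted genes therefore stood within the range of these 41 reporter probe sets in all 4 cultures. HIS3, an enzyme of histidine synthesis, differed from these with 10.60 and 11.32 in the later cultures and 11.14 and 11.14 in the earlier cultures, at percentile 76.8. The his3Δ1 allele removes only an internal stretch of the gene, and which part the probe set covers was not analysed here, so its signal does not test the allele. The genes with 1 intact copy both had means above those of the 41 low reporter probe sets, LYS2 at 8.95 (percentile 35.4) and MET17 at 12.72 (percentile 93.0).

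Most of the genes that define mating types and haploid cells were low in every control culture. All 7 a-specific and 4 alpha-specific probe sets lay in the lowest 25% of levels, with medians at percentiles 7.48 and 6.99. MFA1 and MFA2, the genes of the a-factor pheromone, had means of 5.80 and 5.46, and MF(ALPHA)1 and MF(ALPHA)2, the genes of alpha-factor, had 6.06 and 4.57. The receptor genes STE2 (7.60) and STE3 (5.03), the a-factor exporter STE6 (7.17), the alpha-factor protease BAR1 (5.82) and the agglutinin genes AGA2 (5.75) and SAG1 (8.06) lay in the same part of the scale. Of 14 probe sets in the haploid-specific list, 12 lay in the lowest 25%. They included the G protein subunits GPA1 (6.63), STE4 (8.01) and STE18 (3.95) of the pheromone response, its kinase FUS3 (4.20), the cell cycle inhibitor FAR1 (3.55) and the mating-type endonuclease HO (4.31). The 2 others were RME1, a repressor of meiosis, at 9.97 and MHO1 at 11.57. MHO1 was a member of the list but not one of the markers set for haploid cells, and its use by haploids was not tested.

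The methods print both mating-type alleles of the strain as MATα. A pair of probe sets was therefore examined after their values had been seen. The a1 probe set, annotated to the silent copy HMRA1 of a gene that is active at MATa, had 9.59 and 9.86 in the later cultures and 9.62 and 10.12 in the earlier cultures, at percentile 54.3. The alpha1 probe set, annotated to HMLALPHA1, had 5.70 and 5.27 in the later cultures and 5.23 and 6.19 in the earlier cultures, at percentile 7.03. In an a/alpha diploid a1 is transcribed, while alpha1 and the haploid genes are off. The genotype itself was not tested.

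**Figure D1:**
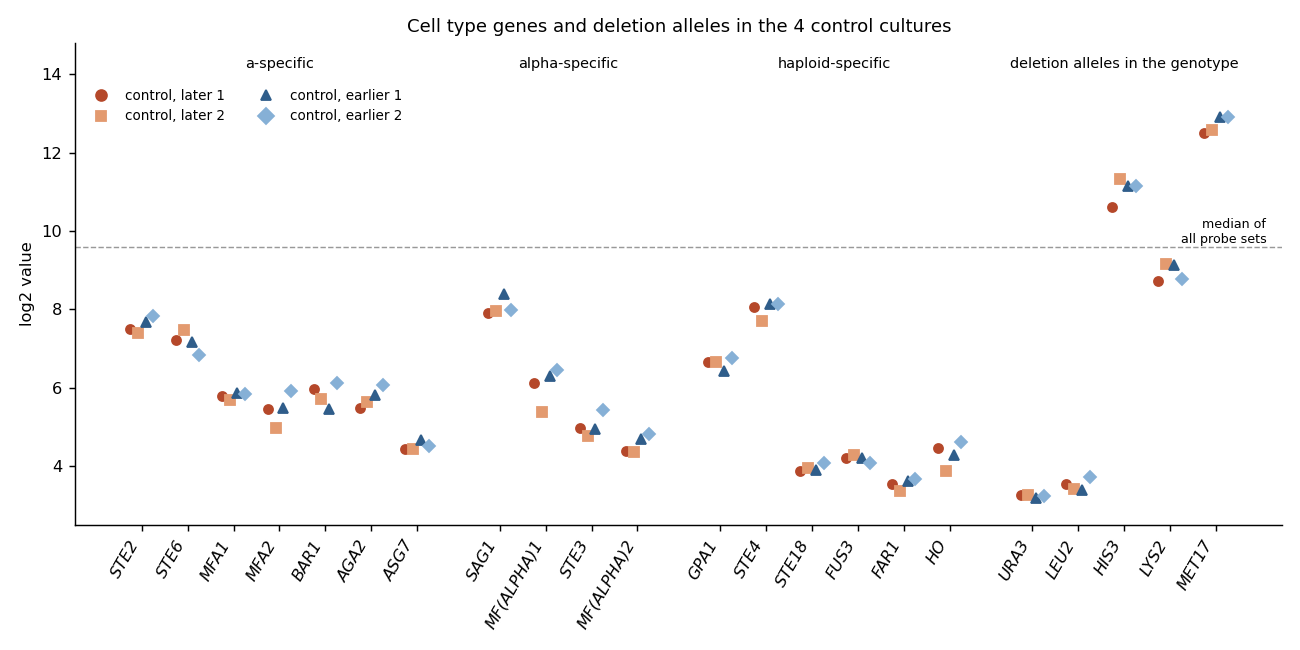
Log2 values (y axis) of the a-specific, alpha-specific and 6 of the haploid-specific genes and of the genes with deletion alleles, with 1 point for each of the 4 control cultures and a dashed line at the median of all probe sets. The mating genes and the 6 haploid genes shown lie below the line in every culture, and URA3 and LEU2 lie between 3.18 and 3.73. RME1 and MHO1, members of the haploid-specific list with means above the line, are not shown.

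Genes of meiosis and spore formation were also low, with 46 of 50 probe sets in the lowest 25% and a median at percentile 7.82. MEI5, which acts in meiotic recombination, had the lowest mean of the list (3.05). The sporulation markers NDT80, the transcription factor of the meiotic middle genes (6.77), SMK1, a kinase of spore wall assembly (4.36), DIT1 (6.14) and SPS4 (5.71) stood at or below percentile 10.7. SPS100, a spore wall gene, reached 8.15, with 7.52 and 9.19 in the later cultures and 8.16 and 7.73 in the earlier cultures. The 4 members above the lowest 25% were SPO73, GSC2 (a glucan synthase subunit), UME6 and RIM101, of which UME6 and RIM101 encode regulators that vegetative cells also use.

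The highest signals of the control cultures came from glycolysis, stress proteins and ribosomal proteins. TDH3, glyceraldehyde-3-phosphate dehydrogenase, had the highest mean (14.46), with 14.44 and 14.49 in the later cultures and 14.45 and 14.45 in the earlier cultures. HOR7 (14.45), a small protein induced by osmotic stress, HSP12 (14.43), a membrane-associated stress protein, GPM1 (14.38), phosphoglycerate mutase, and PGK1 (14.36), phosphoglycerate kinase, followed. Ranks 6 to 15 were held by the metallothionein CUP1-1 (14.33), the peroxiredoxin AHP1 (14.29), the cell wall protein CCW12 (14.21), RPL10 (14.21), RPL2A (14.20), the elongation factor TEF2 (14.20), the pyruvate kinase CDC19 (14.19), RPS8B (14.17), the aldolase FBA1 (14.17) and RPS21A (14.14). These 15 probe sets spanned 0.31 on the log2 scale, close to the top of the measured range, with SDs over the 4 cultures of 0.0108 to 0.0476, and the step between neighbours was no larger than the larger of their SDs except for CUP1-1 over AHP1 and AHP1 over CCW12.

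Of the 100 highest probe sets, 98 named 1 gene and 91 belonged to one of 53 gene lists, among them 59 cytoplasmic ribosomal proteins and 9 glycolytic enzymes. The 100th had a mean of 13.64. No SD over the 4 cultures among these 100 was above 0.145 and the median SD was 0.0441. Of the same 100, 94 were also among the 100 highest of the CHINA8 cultures.

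Enzymes of glucose breakdown were high as a group, and the genes for other carbon sources were low. The 16 glycolytic probe sets had a median at percentile 98.8, and 15 of them lay in the top 10%. The exception was PYK2, a pyruvate kinase that glucose represses, with 9.52 and 9.78 in the later cultures and 10.42 and 9.90 in the earlier cultures (percentile 56.6). The fermentation list was split, with ADH1, the main alcohol dehydrogenase, at 14.14 and PDC6, a minor pyruvate decarboxylase, at 5.10. In the pentose phosphate pathway, where TKL1 (transketolase) was highest at 13.47, the median stood at percentile 78.5.

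Hexose transporters had the lowest median of all 53 lists, percentile 5.14, although a few of them were abundant. The 3 members in the top 10% were HXT3 (13.07), HXT7 (12.91) and HXT1 (12.39), of which HXT7 and HXT1 were named after their values had been seen. HXT1 and HXT3 are low-affinity carriers used when glucose is plentiful, and HXT7 is a high-affinity carrier. In contrast, 13 of the 21 probe sets lay in the lowest 10%, HXT10 with 3.05 the lowest.

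Genes for galactose, maltose and sucrose use had their median at percentile 9.67, and 12 of 14 lay in the lowest 25%. The galactose epimerase GAL10 had 4.62, the repressor GAL80 9.85 and the invertase SUC2 9.32. Gluconeogenesis and the glyoxylate cycle had their median at percentile 9.93, with the carrier SFC1 at 3.53, the phosphoenolpyruvate carboxykinase PCK1 at 7.46, and CIT2, the peroxisomal citrate synthase, as the highest at 13.25. Of its 17 probe sets, 12 lay in the lowest 25% and 2 in the top 10%. Peroxisomal fatty acid oxidation had its median at percentile 35.4, with POX1, the acyl-CoA oxidase, at 5.20.

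Mitochondrial energy genes were nevertheless well above the middle of the scale. The TCA cycle had a median at percentile 87.3 with ACO1, aconitase, at 13.19, and 16 of 18 probe sets lay in the top 25%. CIT3, a minor citrate synthase, was the lowest at 5.54. The respiratory chain and ATP synthase had a median at percentile 90.1, and 37 of 39 probe sets lay in the top 25%, with ATP1, the alpha subunit of the ATP synthase, at 13.57. Mitochondrial ribosomal proteins were more moderate, at a median of 71.7 over 73 probe sets.

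The parts of the translation machinery stood at different heights. Of 148 probe sets of cytoplasmic ribosomal proteins, 142 lay in the top 10%, and the median was percentile 97.8. RPL41A, which encodes a very short protein, was the lowest at 9.85 (percentile 55.4), with 10.12 and 10.06 in the later cultures and 9.24 and 9.99 in the earlier cultures. The 21 aminoacyl-tRNA synthetases, which charge tRNAs, all lay in the top 25% (median percentile 90.1), and translation factors had a median at 86.4, with the elongation factor paralogue HEF3 lowest at 6.87. The factors that assemble ribosomes and the polymerases that transcribe rRNA and tRNA genes were in the middle of the scale. Ribosome biogenesis genes stood at a median of 55.6 for the large subunit (52 probe sets) and 49.1 for the small subunit (43), and RNA polymerases I and III at 48.8 (39).

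Protein folding, turnover and trafficking were high. All 33 proteasome probe sets lay in the top 25%, between RPN11 (11.32) and PRE10 (12.85), with a median at percentile 88.1. Heat shock chaperones had a median at 91.3, and the vacuolar ATPase and secretory list at 93.6, led by VMA3 (13.68), a subunit of the proton pump. Core histones stood at 94.6, and their lowest member CSE4, the centromeric histone H3, had 8.88.

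Biosynthesis of amino acids and nucleotides was mostly above the middle. Over the 7 amino acid lists together, 57 of 116 probe sets lay in the top 25% and 13 in the lowest 25% of levels, against the 25% of all probe sets that each of these ranges holds by construction. GCN4, the activator of amino acid synthesis genes, had a mean of 13.52, and SAH1, which hydrolyses S-adenosylhomocysteine, 13.81. Purine synthesis had a median at percentile 85.4, with ADE17, which catalyses the final steps to IMP, at 13.14, and pyrimidine synthesis at 66.6, with URA1, dihydroorotate dehydrogenase, at 13.19. The arginine list was in the middle (49.9), between ARG81 (5.77), a regulator, and ARG4 (12.42), argininosuccinate lyase.

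Genes that respond to poor nitrogen, low iron or missing vitamins were low. Ammonium and nitrogen use had a median at percentile 30.3, with the repressor DAL80 at 3.73. Iron uptake had 29.3, and its members ran between the reductase FRE5 (3.13) and the oxidase FET3 (11.19). Thiamine and pyridoxine genes had 21.1, where the pyridoxine gene SNO1 (5.94) was lowest and the thiamine-repressible phosphatase PHO3 (11.01) highest. The phosphate regulon stood at 56.8, with PHO89, a sodium-phosphate carrier, at 5.78.

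Lipid synthesis lists were all above the middle. Fatty acid synthesis and desaturation had a median at percentile 91.2, with the synthase subunit FAS1 at 13.44 and the desaturase OLE1 at 12.39. Ergosterol synthesis stood at 80.8, led by ERG10 (acetyl-CoA thiolase, 12.78), sphingolipid synthesis at 79.9, led by the hydroxylase SCS7 (12.61), and phospholipid synthesis at 69.2, led by the methyltransferase OPI3 (13.43).

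Cell wall mannoproteins fell into separate levels, with 10 of 27 probe sets in the top 10% and 13 in the lowest 25%. CCW12 (14.21) marked one end and the anaerobic gene DAN1 (3.45) the other. The PAU genes, a related family expressed mainly without oxygen, had a median at percentile 14.4, with PAU23 (12.43) as the highest. Cyclins and cell cycle regulators were moderate, with a median at 40.5 between FAR1 and RNR4 (12.90), a ribonucleotide reductase subunit.

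Markers of stationary phase were mixed in level. HSP12 stood near the top of the array, and SPG5 (11.30), HSP26 (11.28) and SIP18 (10.06) lay above the median of all probe sets (9.58). SPG4 (9.49) and GRE1 (9.29) lay a little below this median, and SPG1 had 6.49. The 41 probe sets of the general stress list had a median at percentile 80.1, but RGI2, a gene of respiratory growth, had 3.38.

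**Figure D2:**
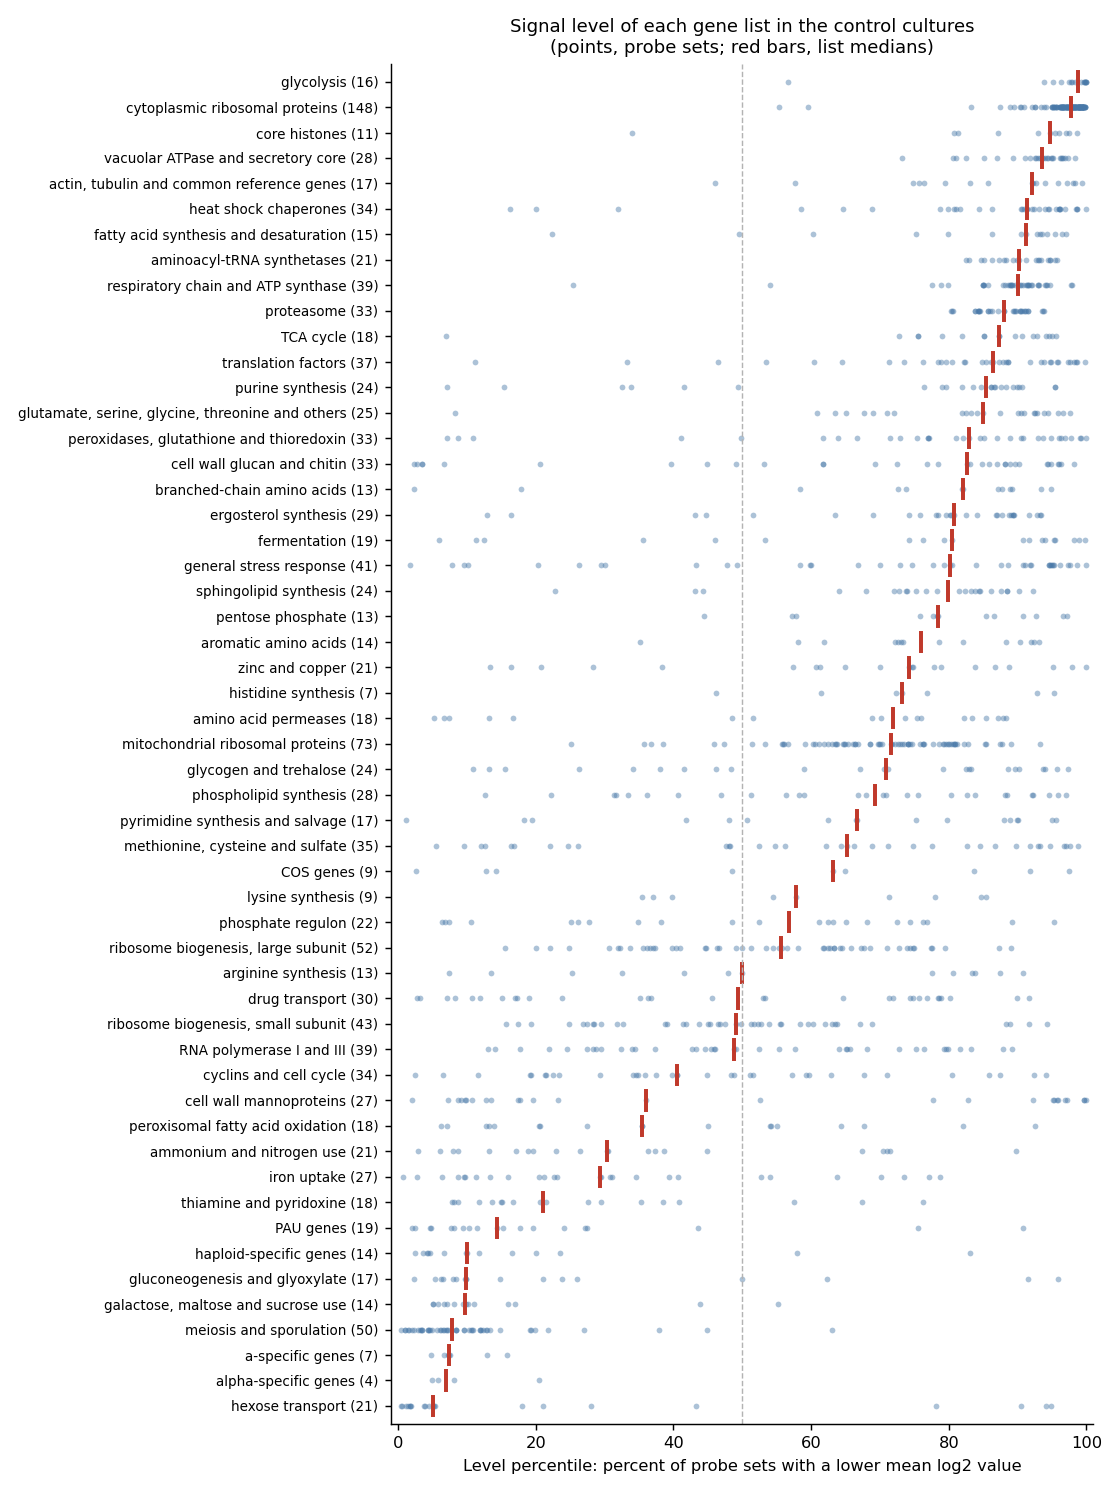
Level percentile (x axis) of every probe set of the 53 gene lists, 1 point each, with a red bar at the list median and the number of probe sets in parentheses. The medians run between 98.8 for glycolysis and 5.14 for hexose transport, with 35 of 53 above the dashed line at 50.

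Genes that had no standard name were lower than named genes. The 508 probe sets with a systematic name only had a median at percentile 20.0 and 55.1% lay in the lowest 25%, while 8 lay in the top 10%. For the 4990 probe sets of genes with a standard name, the median was 53.0, and 21.1% lay in the lowest 25%.

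The spread between the 4 control cultures was small for most genes. For 94.8% of probe sets all 4 values lay within 2-fold, and the SD over the 4 cultures was below 0.2 for 57.9%. Pairs of control arrays correlated over probe sets at r of 0.982 to 0.993 and differed by more than 2-fold at 26 to 210 probe sets, with the most between later culture 1 and earlier culture 1. The median SD was 0.178 in control cultures and 0.142 in CHINA8 cultures, and within dates it was 0.146 in control cultures and 0.0967 in CHINA8 cultures. The difference in spread between the conditions was not tested. By level, the median SD was 0.0985 in the highest 10% of control signals, 0.224 in the second lowest 10% and 0.162 in the lowest 10%.

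**Figure D3:**
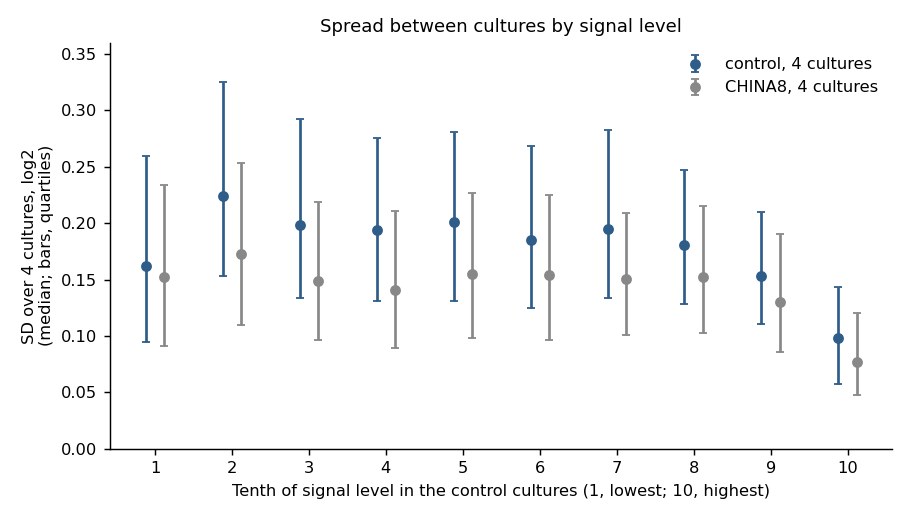
SD of the log2 values over the 4 control and the 4 CHINA8 cultures (y axis) by signal level in the control cultures (x axis, 10 classes of equal size, 10 the highest). Points are medians over probe sets and bars run between the quartiles, and the control medians lie between 0.0985 and 0.224.

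Single cultures stood apart for some genes. Earlier culture 1 was more than 2-fold from the mean of the other 3 at 61 probe sets, 51 of them below it, against 28 for later culture 1, 24 for later culture 2 and 6 for earlier culture 2. The 8 genes with the largest SD within dates, among those above the median level, follow. SIP18, a phospholipid-binding desiccation protein, had 9.08 and 11.20 in the later cultures and 10.06 and 9.90 in the earlier cultures. GND2 and TKL2, minor isoenzymes of the pentose phosphate pathway, had 8.87 and 10.79 (GND2) and 9.14 and 10.68 (TKL2) in the later cultures, and 10.36 and 9.79 (GND2) and 10.40 and 9.52 (TKL2) in the earlier cultures. NQM1, a transaldolase paralogue, had 10.28 and 11.88 in the later cultures and 10.96 and 10.73 in the earlier cultures, and HBT1, a protein of mating projections, had 9.41 and 10.71 in the later and 10.48 and 9.66 in the earlier cultures. In all of these, later culture 1 was the lowest and later culture 2 the highest.

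The remaining genes of this kind had other patterns. HXT4, a hexose carrier, had 11.02 and 11.57 in the later cultures and 11.62 and 10.37 in the earlier cultures. GIM5, a prefoldin subunit, had 10.89 and 9.83 in the later cultures and 9.24 and 10.38 in the earlier cultures, and CMS1, a nuclear protein tied to the small ribosomal subunit, had 10.34 and 9.77 in the later and 8.66 and 9.88 in the earlier cultures. GIM5 and CMS1 were lowest in earlier culture 1 and highest in later culture 1.

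The spread was also divided by the dates in the titles. Of the sum of squares over the 4 control cultures, 52.1% lay between the dates, and 67.5% in the CHINA8 cultures, where the dates hold 1 of 3 degrees of freedom. Both later control cultures were above both earlier ones at 1265 probe sets (22% of 5763) and below them at 1439 (25%). An exact permutation test of 2 against 2 cultures has 6 splits and cannot give a p below 0.333, so single genes were tested in a limma model in which all 18 arrays share the estimate of the spread.

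Most of the ribosome biogenesis probe sets were called higher in the later cultures, and a minority of the sulfur, phosphate, iron and sugar probe sets lower. After Benjamini-Hochberg adjustment in limma, 298 probe sets were higher in the later control cultures (5.17% of those tested) and 284 lower (4.93%). With the array medians set equal the split was 274 higher and 449 lower. Of the 582, 37 differed by 2-fold or more, 31 higher and 6 lower. The calls rested on the arrays of the extracts and on 1 culture: 132 were made with control and CHINA8 arrays alone, none with the 4 control arrays alone (866 at an unadjusted p under 0.05) and 30 without earlier culture 1, against 253 without later culture 1, 593 without later culture 2 and 891 without earlier culture 2.

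Among the 95 probe sets of ribosome biogenesis, 53 rose in the later cultures and none fell, against 5.17% and 4.93% of all probe sets. In 85 of the 95, both later cultures lay above both earlier ones, against 22% of all probe sets, and the median difference was 0.57 on the log2 scale, against -0.01 over all probe sets. RPF1, needed for the large subunit, had 9.60 and 9.18 in the later cultures and 7.84 and 8.56 in the earlier cultures, a difference of 1.19 ± 0.22 (SE, adjusted p = 0.00911). SSF1, another large-subunit factor, had 8.95 and 8.64 in the later cultures and 7.22 and 7.97 in the earlier cultures. NOP7, part of the complex that processes the large-subunit rRNA, had 10.04 and 9.45 in the later cultures and 8.41 and 8.75 in the earlier cultures. The dates did not overlap for these genes, and earlier culture 1 was the lowest in each.

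Factors of the small subunit showed the same order of cultures. KRR1 had 10.32 and 9.68 in the later cultures and 8.46 and 9.29 in the earlier cultures, and LTV1, an export factor of pre-40S particles, had 8.70 and 8.39 in the later cultures and 7.04 and 7.75 in the earlier cultures. The 12 largest increases also held FAL1 (an RNA helicase, 1.17), FAF1 (1.36), RRP36 (1.29), RRP14 (1.47) and SAS10 (1.24), all factors of rRNA processing, with adjusted p-values between 0.00694 and 0.0409. BRX1 (12.23) and SNU13 (12.92), the members of highest level, had differences of 0.46 and 0.29 with adjusted p-values of 0.141 and 0.0651.

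The number of ribosome biogenesis calls depended most on 1 culture. The median deviation of the list from the mean of the 4 cultures was 0.31 and 0.25 in the later cultures and -0.45 and -0.12 in the earlier cultures. In place of 53 calls there was 1 without earlier culture 1, 13 without later culture 1, 32 without later culture 2 and 70 without earlier culture 2. Without earlier culture 1 the median difference was 0.42, against 0.57 with all 4 cultures. With only control and CHINA8 arrays 20 were called, and 52 with the array medians set equal.

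Some genes of the polymerases that serve the ribosome rose as well, and no ribosomal protein probe set was called, at a level where few were. In the RNA polymerase I and III list 7 of 39 probe sets rose and 1 fell (5.17% and 4.93% of all probe sets), with RRN11, an initiation factor of polymerase I, at 9.04 and 8.79 in the later cultures and 7.58 and 8.04 in the earlier cultures (difference 1.11 ± 0.17, SE, adjusted p = 0.00582). RRN5, another initiation factor of the same polymerase, fell by 0.59. In place of 7 rises there were 0 without earlier culture 1, 2 without later culture 1, 5 without later culture 2, 13 without earlier culture 2 and 1 with only control and CHINA8 arrays. Of the 148 ribosomal protein probe sets 0 were called, and their median difference was 0.02, or -0.01 with the array medians set equal. Of these, 142 lay in the top 10% of levels, where only 5 of 576 probe sets were called higher and 3 lower. Whether they differ from the biogenesis genes beyond this effect of level was not tested.

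In purine and one-carbon metabolism, 6 of 24 probe sets rose and 1 fell, against 5.17% and 4.93% of all probe sets. MTD1, a methylenetetrahydrofolate dehydrogenase, had 11.23 and 12.56 in the later cultures and 10.58 and 10.70 in the earlier cultures. BAS1, an activator of purine genes, had 8.91 and 9.38 in the later cultures and 8.37 and 8.55 in the earlier cultures, and AAH1, adenine deaminase, 10.01 and 9.89 in the later cultures and 8.90 and 9.44 in the earlier cultures. The glycine cleavage gene GCV1 rose by 0.75, with 10.21 and 11.21 in the later cultures and 10.03 and 9.89 in the earlier cultures. Later culture 2 held the highest value of MTD1, BAS1 and GCV1. In place of 6 rises in purine genes there were 0 without earlier culture 1, 8 without later culture 1, 2 without later culture 2, 5 without earlier culture 2 and 0 with only control and CHINA8 arrays.

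The list of methionine, cysteine and sulfate genes had 8 of 35 probe sets lower in the later cultures and none higher, against 4.93% and 5.17% of all probe sets, and a median difference of -0.21. MET2, which makes O-acetylhomoserine, had 7.55 and 7.95 in the later cultures and 8.81 and 8.42 in the earlier cultures. MET28, a cofactor of sulfur gene activation, had 7.29 and 7.38 in the later cultures and 7.94 and 8.06 in the earlier cultures. The S-adenosylmethionine carrier SAM3 fell by 0.64 and the S-methylmethionine carrier MMP1 by 0.76. In place of 8 lower probe sets there were 2 without earlier culture 1, 5 without later culture 1, 11 without later culture 2, 9 without earlier culture 2 and 4 with only control and CHINA8 arrays. MET17, heterozygous for its deletion, fell by 0.38 ± 0.07 (SE, adjusted p = 0.00911), with 12.49 and 12.57 in the later cultures and 12.90 and 12.91 in the earlier cultures.

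A minority of the phosphate, iron, permease and sugar probe sets were called lower in the later cultures, against 4.93% of all probe sets. Other nutrient lists had fewer, with 0 of 21 lower for zinc and copper and 1 of 18 for thiamine and pyridoxine. Nitrogen use and hexose transport each had 2 of 21 lower. In the phosphate regulon 5 of 22 probe sets fell and none rose, among them PHO89 (0.61 lower) and GIT1, a glycerophosphoinositol carrier (0.55 lower). Of the iron uptake list 4 of 27 fell and none rose, with ENB1, a siderophore carrier, 0.58 lower in the later cultures, where both values lay below both earlier ones. Amino acid permeases had 4 of 18 lower and none higher, such as AGP2 with a difference of -0.63 and AGP3 with -0.57. Of galactose, maltose and sucrose genes 3 of 14 fell: the maltose activator MAL13 by 0.73, GAL80 by 0.57 and SUC2 by 0.56. Without earlier culture 1 the number of lower probe sets was 1 in the phosphate list and 0 in the iron, permease and sugar lists, and without later culture 1 it was 0 in the phosphate list and 2 in each of the others. Without later culture 2 it was 3, 2, 5 and 4 in the phosphate, iron, permease and sugar lists, and without earlier culture 2 it was 3, 7, 6 and 3. With only control and CHINA8 arrays the numbers were 1, 0, 1 and 2, and with the array medians set equal 8 probe sets were lower in the phosphate list and 7 among the permeases.

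In lipid genes, the phospholipid list had 4 of 28 lower and none higher, against 4.93% and 5.17% of all probe sets. INO1, which makes inositol phosphate, had 10.02 and 9.94 in the later cultures and 11.09 and 10.60 in the earlier cultures (difference -0.87 ± 0.16, SE, adjusted p = 0.00898). PSD1, phosphatidylserine decarboxylase, fell by 0.71. Of 15 probe sets of fatty acid synthesis and desaturation 3 rose and 1 fell, against 5.17% and 4.93%. The desaturase OLE1 rose by 0.57 and its activator MGA2 by 0.46. The phospholipid list had 0 lower probe sets without earlier culture 1, 3 without later culture 1, 3 without later culture 2, 5 without earlier culture 2 and 0 with only control and CHINA8 arrays. Neither OLE1 nor MGA2 was called without earlier culture 1, earlier culture 2 or later culture 2, and both were without later culture 1.

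Some of the larger single differences lay outside these groups. YOR338W had 7.25 and 8.25 in the later cultures and 5.49 and 5.79 in the earlier cultures, a difference of 2.11 ± 0.23 (SE, adjusted p = 0.0013). Both probe sets of PRM7, a pheromone-regulated membrane protein gene, rose, by 1.55 and 1.48. WHI5, the repressor of the start of the cell cycle, had 4.99 and 4.77 in the later cultures and 6.24 and 5.64 in the earlier cultures, and SRX1, which repairs oxidized peroxiredoxin, 7.04 and 6.97 in the later cultures and 8.01 and 8.07 in the earlier cultures. ART5, an adaptor of the ubiquitin ligase Rsp5, fell by 1.16, the aspartyl protease YPS6 by 1.01 and the transcription factor CIN5 by 0.97. RIM4, a translational repressor that acts during meiosis, fell by 0.94. Of the 49 probe sets named in this text that passed the test, 6 also passed without earlier culture 1, 32 without later culture 1, 38 without later culture 2 and 42 without earlier culture 2.

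Probe sets that track the RNA and its labelling differed between the dates in control and CHINA8 cultures, but did not follow the date over the whole series. The 3′ probe set of 18S rRNA minus the 5′ one was -1.49 and -1.42 in the later control cultures and -2.67 and -2.85 in the earlier ones. The same difference was -1.54 to -1.12 in the later CHINA8 cultures and -2.58 to -2.08 in the earlier ones. In the 10 arrays of the other extracts, all titled with the later date, it was -2.83 to -2.34, near the earlier cultures. The 3′ minus 5′ difference of dap, a bacterial RNA spiked in as a labelling control, was 2.03 and 2.14 in the later control cultures. It was 1.47 and 1.48 in the earlier control cultures, and 1.40 to 1.80 in the other extracts. In the later CHINA8 cultures it was 1.96 to 2.38, and in the earlier ones 1.33 to 1.80. For ACT1 mRNA, actin, the 3′ minus 5′ difference lay between 0.32 and 0.39 in all 4 control cultures, without a separation by date. In CHINA8 it was 0.39 to 0.42 in the later cultures and 0.31 to 0.34 in the earlier ones. The part of RNA quality or labelling in the date differences was not tested.

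**Figure D4:**
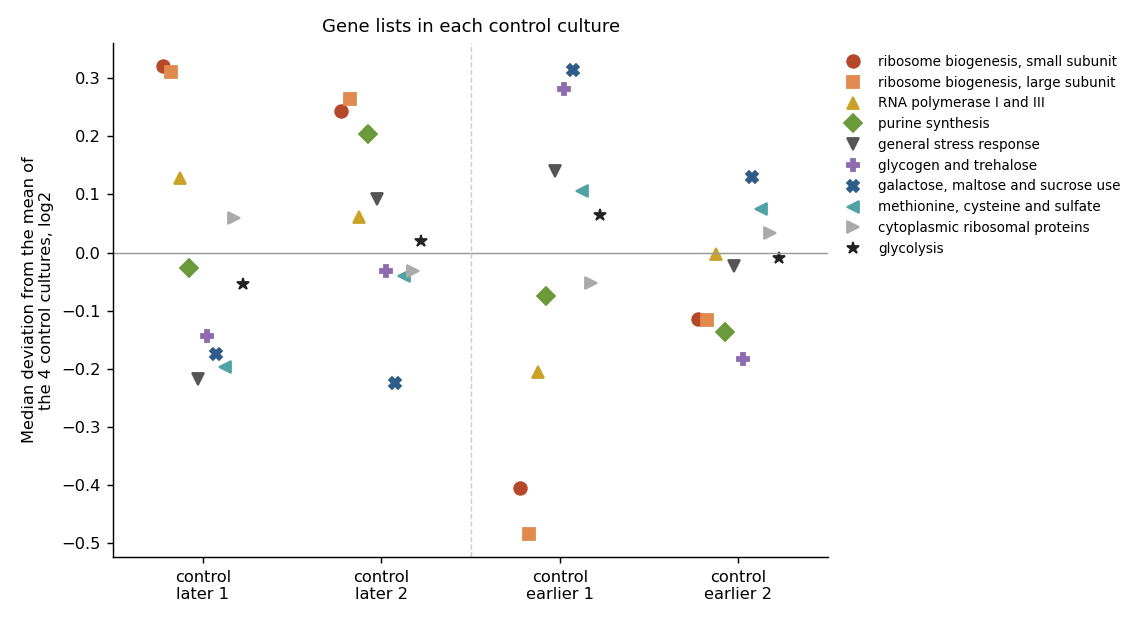
Median deviation of 10 gene lists from the mean of the 4 control cultures (y axis, log2), with 1 symbol per list in each culture. The ribosome biogenesis lists lie highest in both later cultures and lowest in earlier culture 1, where their medians are -0.40 and -0.48.

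The CHINA8 cultures, which share no array with the control cultures, had 168 probe sets higher in the later cultures (2.92%) and 192 lower (3.33%). Between the lists, 29 probe sets were higher in both, 9.73% of the control calls and 17.3% of the CHINA8 calls, and 72 lower in both, 25.4% of the control calls and 37.5% of the CHINA8 calls. Opposite directions were seen for 0. Among named genes, YOR338W (1.72, adjusted p = 0.00924), WHI5 (-1.17), SRX1 (-0.68), CHS2, a chitin synthase (-0.55), NRM1, a G1 corepressor (-0.52), MMP1 (-0.54), MET17 (-0.36), PAU23 (-0.37) and MGA2 (0.51) were called in the same direction in both conditions. Across all probe sets, the date differences of control and CHINA8 cultures had r = 0.32, as a description over 5763 probe sets that share libraries. The CHINA8 count of 360 was 0 with control and CHINA8 arrays alone, 46 without later CHINA8 culture 1, 28 without later CHINA8 culture 2, 10 without earlier CHINA8 culture 1 and 0 without earlier CHINA8 culture 2.

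In the CHINA8 cultures, 0 of the 95 ribosome biogenesis probe sets were called and their median date difference was -0.02. Of all probe sets, 5.17% were called higher in the later control cultures and 4.93% lower. In the later CHINA8 cultures 2.92% were called higher and 3.33% lower. The general stress list had 2 of 41 probe sets higher in the later control cultures and 10 in the later CHINA8 cultures. Its median differences were -0.14 in control and 0.50 in CHINA8 cultures. The glycogen and trehalose list had 0 of 24 higher and 1 lower in the later control cultures. In the later CHINA8 cultures it had 7 higher and 1 lower. Other lists had calls in the same direction in both conditions. The phosphate regulon had 5 of 22 lower in the later control cultures and 4 in the later CHINA8 cultures. For iron uptake the numbers were 4 and 5 of 27, and for methionine, cysteine and sulfate 8 and 4 of 35. HXT4 was 0.30 higher in the later control cultures (adjusted p = 0.708) and 2.43 higher in the later CHINA8 cultures (adjusted p = 0.0161).

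Whether the date difference itself differed between control and CHINA8 cultures was tested for each gene, and 2 of 5763 probe sets passed (922 at an unadjusted p under 0.05). They are named here after their values were seen. LCP5, a small-subunit factor, had 9.30 and 8.94 in the later control cultures and 8.03 and 8.10 in the earlier ones, and in CHINA8 it had 9.34 and 9.43 in the later cultures and 9.45 and 9.42 in the earlier ones (difference of differences 1.11, adjusted p = 0.0259). YAL037W, a gene without a known role here, had 7.34 and 7.15 in the later control cultures and 6.19 and 6.39 in the earlier ones, and in CHINA8 6.89 and 6.72 in the later cultures and 6.89 and 7.07 in the earlier ones (1.12, adjusted p = 0.0259). Neither is in a gene list, so 0 of the 95 ribosome biogenesis probe sets of the lists passed this test. The fit took control and CHINA8 cultures of a date as independent. Deviations of cultures with the same number correlated between them at 0.75 at the earlier and 0.18 at the later date. With such cultures as blocks and only control and CHINA8 arrays, added after seeing the data, 54 passed with random and 20 with fixed blocks. In place of 2 there were 0 without earlier control culture 1, 0 without later control culture 1, 80 without later control culture 2, 395 without earlier control culture 2 and 0 without any 1 of the CHINA8 cultures.

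**Figure D5:**
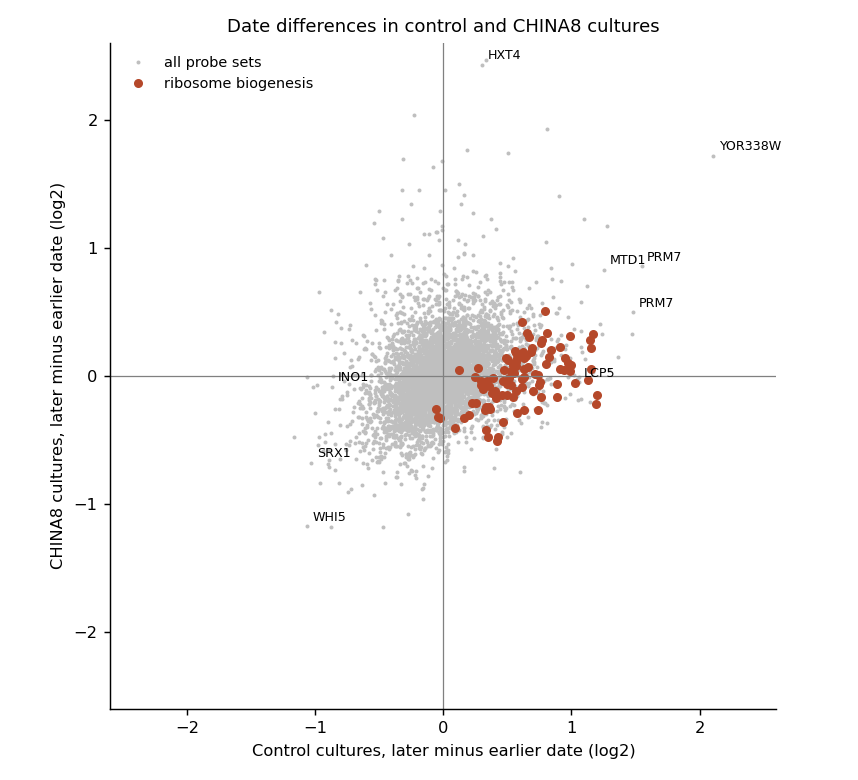
Later minus earlier difference (log2) of each probe set in control cultures (x axis) and CHINA8 cultures (y axis), with the 95 ribosome biogenesis probe sets in red. The red points have a median of 0.57 along the control axis and -0.02 along the CHINA8 axis.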

How the data were processed

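RNA of 18 cultures was labelled with the 3′ IVT Express kit and hybridized to Affymetrix Yeast Genome 2.0 arrays, 1 per culture. The authors made the deposited log2 values by RMA, which corrects background, quantile-normalizes the probes and summarizes them per probe set, so a shift of most genes one way cannot be seen. RMA and limma are the tools named in the notes the submitters gave on processing, without a version. An array signal holds no count of molecules, and the number of arrays limits the precision. Groups and dates came from the sample titles, and 0 columns of per-sample values were left unused.

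Values were used as deposited, without a filter on dim probe sets. Date differences (later minus earlier) were fitted with lmFit and eBayes of limma 3.58.1 in R 4.3.3, in a model of 9 groups over all 18 arrays, with Benjamini-Hochberg adjustment over 5763 probe sets and a threshold of 0.05. The model was tested on simulated data. Gene names came from the platform annotation, 12 of them updated by gene ID. The 265 probe sets that name no gene stayed in all ranks, and 153 can bind several transcripts. The control cultures, the 53 gene lists and the tests were chosen with earlier results of these data known. In all, 32 list members had no probe set matched by name and were not analysed under their own names. Probe sets named for a close relative, such as CUP1-1 for CUP1-2, may carry part of their signal.

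Named genes were the 15 highest, the highest, the lowest and up to 3 members of largest date difference in each list, the 12 largest rises and 12 largest falls among called genes whose dates did not overlap, the 8 of largest SD within dates above the median level, the genes with deletion alleles and the mating-type lists. Markers of sporulating and stationary-phase cells were a fixed list. Alternatives covered normalization, dim or shared probe sets, the prior, the arrays in the fit, the adjustment, the replicate number and cultures left out.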

Additional observations from a re-analysis of the deposited data

Results flagged for a closer look

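Among 154 probe sets named in the text and 53 lists, 1 culture lay far from the other 3 for 7 probe sets and 1 list, by a rule that chance meets in about 1 of 20 groups. Earlier culture 1 was low for RPL41A (9.239, the other 3 between 9.989 and 10.11) and high for SAG1 (8.40, the other 3 between 7.90 and 7.976) and ADH1 (14.19, the other 3 at 14.12). Later culture 1 was low for FBA1 (14.10, the other 3 between 14.18 and 14.19) and for the median percentile of peroxisomal fatty acid oxidation (32.21, the other 3 between 36.66 and 37.47), and high for FET3 (11.21, the other 3 between 11.18 and 11.19). Later culture 2 was low for STE4 (7.707, the other 3 between 8.072 and 8.147), and earlier culture 2 was high for PHO3 (11.24, the other 3 between 10.91 and 10.96).

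The date difference itself differed between control and CHINA8 cultures for YAL037W, by 1.1216, and for LCP5, by 1.1069 on the log2 scale (limma, adjusted p = 0.0259 for both). Both calls were lost without earlier or later control culture 1, where 0 probe sets passed.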

How the results depend on the processing

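The 582 date calls in control cultures, 360 in CHINA8 cultures and 2 for their difference were 132, 0 and 0 with only control and CHINA8 arrays, and 8, 5 and 1 after Bonferroni adjustment. With only the 4 control arrays limma made 0 calls in control cultures, with 866 at an unadjusted p under 0.05. The difference had 1 call with the dimmest 20% of probe sets left out and 0 with a trended, robust prior. Leaving out 1 culture at a time gave 30 to 891 calls in control cultures, 0 to 46 in CHINA8 cultures and 0 to 395 for the difference. A group left with 1 culture was assumed to vary like the others. Setting array medians equal, repeating quantile normalization, leaving out shared probe sets or keeping Affymetrix control probe sets kept all 3 counts within 1.5 times, and no named gene was called in the opposite direction under these or the other alternatives run for single genes, which did not include the crossed and within-date blocks.

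The labels do not say what the replicate numbers share. Deviations of the same number correlated at -0.37 between the dates in control cultures and, between control and CHINA8, at 0.75 at the earlier and 0.18 at the later date. The correlation within numbers of a date was estimated at 0.49. With the replicate block the counts were 688, 400 and 16. With the numbers crossed at the later date, added after seeing the data, they were 921, 573 and 212. A replicate block within each date, also added then, gave 126, 1 and 54 calls as a random effect with only control and CHINA8 arrays, and 20 for the difference as a fixed effect.

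The median SD between control cultures was 0.1516 to 0.1758 with 1 culture left out. Of the 100 highest probe sets, 96 to 98 stayed so with the median of the arrays or either date alone. The number of lists above percentile 50 was 34 to 38. Leaving out probe sets that can bind several transcripts moved 1 list median by 32.4 points, that of the subtelomeric COS genes. The 2 cultures per date limit the date differences.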
